A study of Homo sapiens with 4 samples.

Results

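The kinetochore and spindle checkpoint genes described here are 42 genes that encode the protein machine joining chromosomes to the mitotic spindle and the signal that delays anaphase until every chromosome is attached. They were chosen by name, from knowledge of the pathway, but with earlier results of these data known. Each was read from the brightest of its probe sets whose annotation gives 1 gene symbol. All 42 have such a probe set, out of 18132 genes on the array, and all 42 passed the filter on dim probe sets (mean intensity above 12.0), as 14122 genes did. The cells were SCC-9, an established line grown from a human tongue tumour of squamous type. The mimic group received miR-585-5p mimics at 30 nM and the control group the small RNA miR-NC, 24 hours after seeding, and RNA was taken 36 hours after transfection. Each group has 2 arrays, so 4 PrimeView arrays in all, and both groups were transfected. A mimic is a synthetic double-stranded RNA that supplies a microRNA in excess, so the mimic group shows an excess above whatever SCC-9 cells make, and no probe set measures the microRNA itself. Whether both arrays per group stem from independent cultures is not in the labels, and p-values thus cover the spread among these 4 samples alone, which may be technical.

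A microRNA pairs with its targets mainly through its seed, bases 2 to 8, shown in capitals in the RefSeq sequences (GRCh38.p14) of the transfected strand and of the other strand of the same hairpin, MIR585.
hsa-miR-585-5p, chr5:169263649-169263670, minus strand: cUAGCACAcagauacgcccaga
hsa-miR-585-3p, chr5:169263616-169263634, minus strand: uGGGCGUAucuguaugcua
No other mature human microRNA in that table has the 5p seed (0 others). Whether transcripts of the 42 genes pair with the seed was not tested.

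The kinetochore is built on nucleosomes that carry the histone variant CENP-A. An inner layer, the constitutive centromere-associated network, binds those nucleosomes, and an outer layer, made of KNL1, the MIS12 complex and the NDC80 complex, binds microtubules. Unattached kinetochores recruit the kinases TTK and BUB1 and the proteins MAD1 and MAD2, and from there a complex of MAD2, BUBR1, BUB3 and CDC20 inhibits the anaphase promoting complex. Many of these genes are transcribed mainly in G2 and mitosis, and dividing squamous carcinoma cells express them.

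Most kinetochore and checkpoint genes were higher in the mimic group. Of the 42, 33 rose and 2 fell (CENPH and the brightest probe set of BUB3) at a limma adjusted p under 0.05 over all genes tested, and 7 did not pass, where 28.1% of all genes tested rose and 26.9% fell. The rise was at least 2-fold for 20 members (4.76% of all genes) and at least 4-fold for 7 (0.552% of all genes), which were NDC80, CENPN, NUF2, CENPA, CENPF, SPC25 and TTK. With log2(intensity + 16), NUF2, SPC25 and TTK were at 1.80, 1.78 and 1.69, under 4-fold, while NDC80, CENPN, CENPA and CENPF stayed above it. NUF2 (22.7 and 23.3) and SPC25 (27.2 and 27.8) were dim on the control arrays, where control probe sets with no human target reached up to 16.8. The members' median log2 change was 0.96, beside -0.06 for all genes tested. Both mimic arrays lay above both control arrays for 35 members and below them for 6, beside 36.5% and 42.9% of all genes, and the groups overlapped for ZW10 alone. In RNA from whole cultures, a higher level in each cell cannot be told apart from more cells in the stage of the cycle at which these genes are read. When the arrays were set to the poly(A) spikes instead, 28 members rose and 6 fell (CENPH, BUB3, CENPT, SPC24, PMF1 and ZWILCH). The median of all genes tested went to -0.40. The spikes' mean log2 level was 0.34 higher on the mimic arrays (6.21 and 6.17) than on the control arrays (5.76 and 5.95). The 2 control arrays thus differed from each other, which limits how well this scale is set. Calls on it are not like the main ones. CENPN had a limma adjusted p of 8.39e-84 there at an SE of 0.11, against 1.20e-09 at 0.06 in the main fit. Calls near the threshold, such as SPC24 (-0.41 ± 0.17, adjusted p = 0.0249), depend on the fit. The spike scale lowers every gene's change by the same amount, and SPC25 and TTK were at 1.94 and 1.70 on it, under 4-fold. As every gene is lowered alike, the distance between the members' median and that of all genes (1.02) could not differ between the scales. Markers of proliferation moved with the members. Of 10, 9 rose and none fell (0), with TOP2A at 2.86 ± 0.06, PCNA at 1.58 ± 0.08 and MCM7 at 0.43 ± 0.05, and MCM5 at 0.15 not passing (limma adjusted p = 0.467). Their summed intensity was 9921 to 10833 on the mimic arrays and 4183 to 4272 on the control arrays, and their part in the members' rise was not tested. Changes below are on the deposited scale, as log2 mimic minus control with SE (n = 2 per group), and intensities are probe set values.

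**Figure D1:**
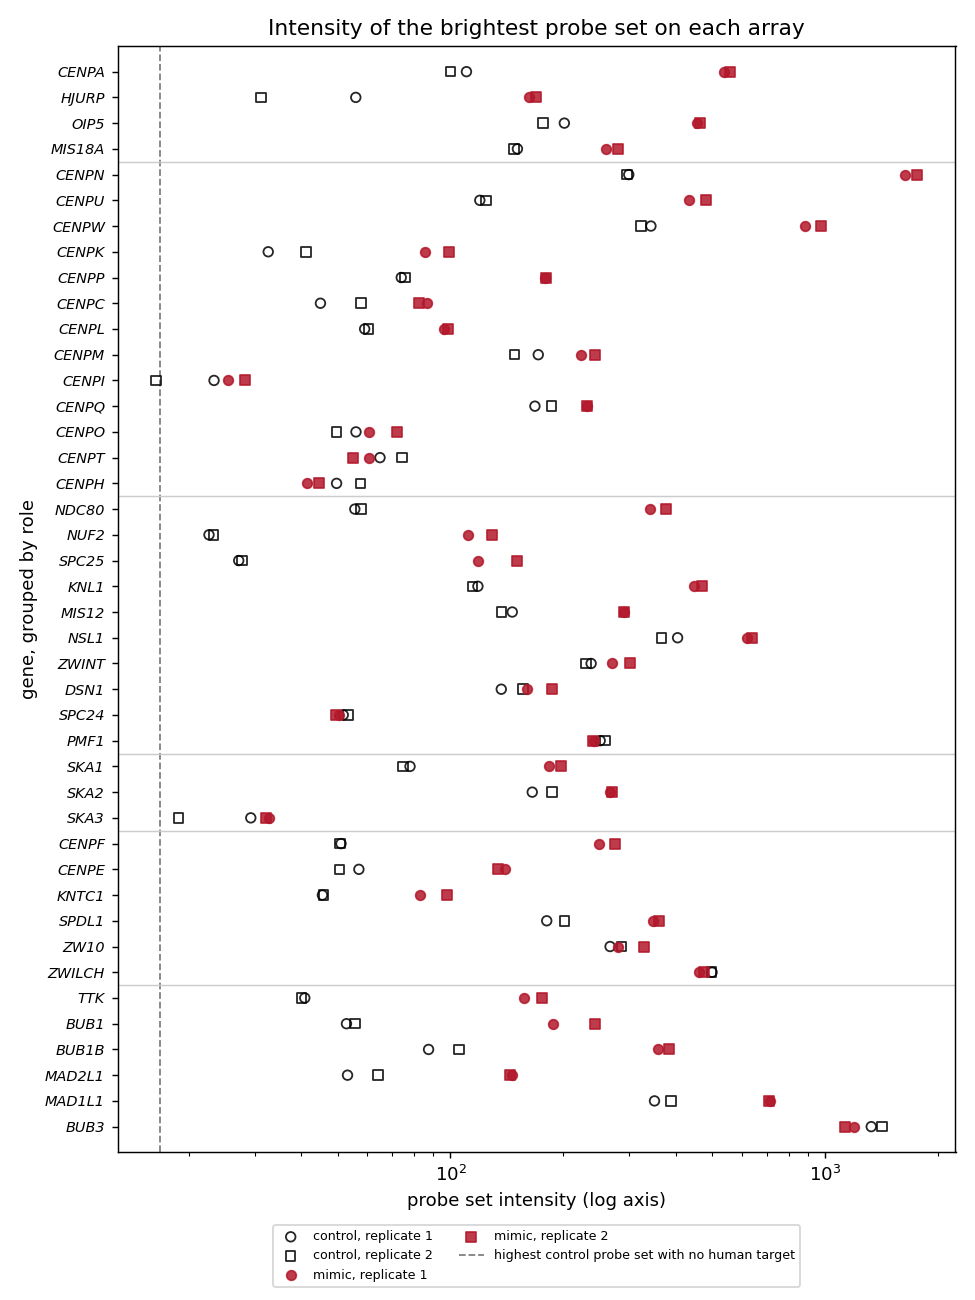
Intensity (log axis) of the brightest probe set of each of the 42 genes on the 2 mimic arrays (filled) and the 2 control arrays (open), grouped by role, with the highest of 20 control probe sets that have no human target (16.8) as a dashed line. Both mimic arrays lie to the right of both control arrays for 35 genes, and the points of ZW10 overlap.

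**Figure D2:**
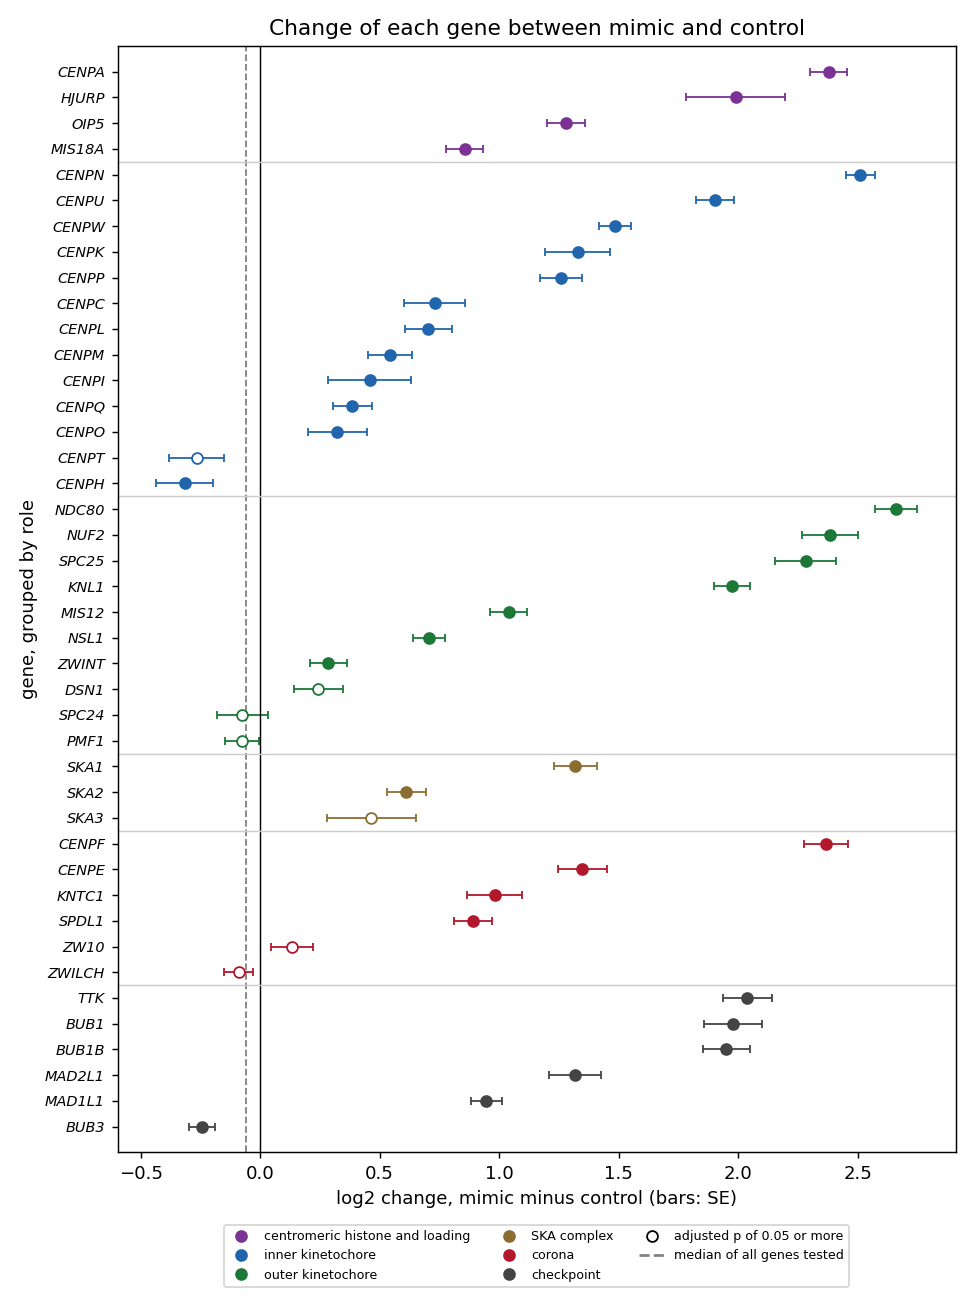
Log2 change between mimic and control of each gene with its SE, coloured by role, open where the adjusted p was 0.05 or more. Changes run from -0.32 for CENPH to 2.66 for NDC80, and the dashed line is the median of all genes tested (-0.06). CENPO, DSN1, ZWINT and ZW10 lie above 0 here and below 0 with the poly(A) spikes.

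Promoters of the genes with large changes are shown because members that move together can be set beside the letters of known cell cycle elements. The cell cycle genes homology region (CHR) is an element that the DREAM and MuvB complexes bind in many genes of G2 and mitosis, often together with CCAAT boxes, which NF-Y binds. Capitals mark TTTGAA or TTCGAA (CHR-like) and CCAAT, on either strand, from 140 bases before the transcription start to 10 after it (RefSeq, GRCh38.p14, 5′ to 3′ on the gene's strand). CENPA, HJURP, BUB1B and SPC25 are among the 3 largest changes of their role. Others of that rank are not printed, some with CHR-like letters (NDC80, NUF2, CENPN and CENPF among them) and some without (CENPU, CENPE and SKA2). SPC24, whose protein pairs with that of SPC25, was added after its values were seen.
CENPA, chr2:26785916-26786065, plus strand: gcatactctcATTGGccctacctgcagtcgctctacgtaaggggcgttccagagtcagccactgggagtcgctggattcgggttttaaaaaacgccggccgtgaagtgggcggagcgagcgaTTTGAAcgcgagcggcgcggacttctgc
HJURP, chr2:233854526-233854675, minus strand: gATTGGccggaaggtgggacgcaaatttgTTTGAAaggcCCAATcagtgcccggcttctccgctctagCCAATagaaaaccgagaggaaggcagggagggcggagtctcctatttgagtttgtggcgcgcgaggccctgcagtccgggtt
BUB1B, chr15:40160929-40161078, plus strand: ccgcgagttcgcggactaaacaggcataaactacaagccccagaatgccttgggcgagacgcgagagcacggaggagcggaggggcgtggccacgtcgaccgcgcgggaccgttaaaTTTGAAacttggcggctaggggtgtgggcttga
SPC25, chr2:168890421-168890570, minus strand: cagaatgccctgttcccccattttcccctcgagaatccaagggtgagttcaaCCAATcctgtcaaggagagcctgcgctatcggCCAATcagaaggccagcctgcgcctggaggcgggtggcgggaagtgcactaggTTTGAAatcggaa
SPC24, chr19:11155773-11155922, minus strand: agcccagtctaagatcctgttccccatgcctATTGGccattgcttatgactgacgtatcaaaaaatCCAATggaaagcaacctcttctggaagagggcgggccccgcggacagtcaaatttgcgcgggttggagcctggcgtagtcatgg
The CHR-like letters of CENPA begin at base -18, those of BUB1B at -23 and those of HJURP at -111. In SPC25 a match begins at -3 and runs over the start, and another lies at -247, outside the printed stretch. SPC24 has CCAAT in 3 places (-207, -109 and -74) and no CHR-like letters between 250 bases before the start and 50 after it.

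In that whole window, 34 of the 42 genes have a promoter in the RefSeq table (4 of them several, any of which was counted), and 19 of the 34 hold CHR-like letters (55.9%). Among all genes tested that have a promoter there, 1810 of 11402 do (15.9%), and among all 35116 promoters 16.4% do. The members with such letters had a median log2 change of 1.48 and 17 of the 19 rose, while the 15 without had a median of 0.61 and 10 of them rose. Among all genes tested that have a promoter the medians were -0.02 with the letters and -0.05 without them. Of all genes tested 28.1% rose, and that share was not computed apart for genes with and without the letters. CCAAT was present in 22 of the 34 (64.7%, beside 42.1% of genes tested). The median log2 change was 1.27 with CCAAT and 0.83 without it in that window, but 1.16 and 1.10 in the narrower window from 100 bases before the start. E2F-like letters (TTTGGCGC, TTTCGCGC, TTTCCCGC or TTTGCCGC) were present in 4 of the 34 (6.03% of genes tested), which were CENPA, OIP5, CENPU and MIS12. Both strands were searched, TTCGAA reads the same on both and was counted once, and matches of different motifs overlapped in 0 member promoters. In the narrower window, which also ends 50 bases after the start, 17 of the 34 held CHR-like letters (6.89% of genes tested), NDC80, NUF2, CENPN, CENPF and BUB1 among them, while CENPU, CENPE and CENPK rose by 1.90, 1.35 and 1.33 with none in either window. These matches are descriptions of letters, and binding was not measured. CENPH, CENPL, CENPM, MIS18A, KNL1, KNTC1, BUB3 and TTK were not analysed here for promoter letters.

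**Figure D3:**
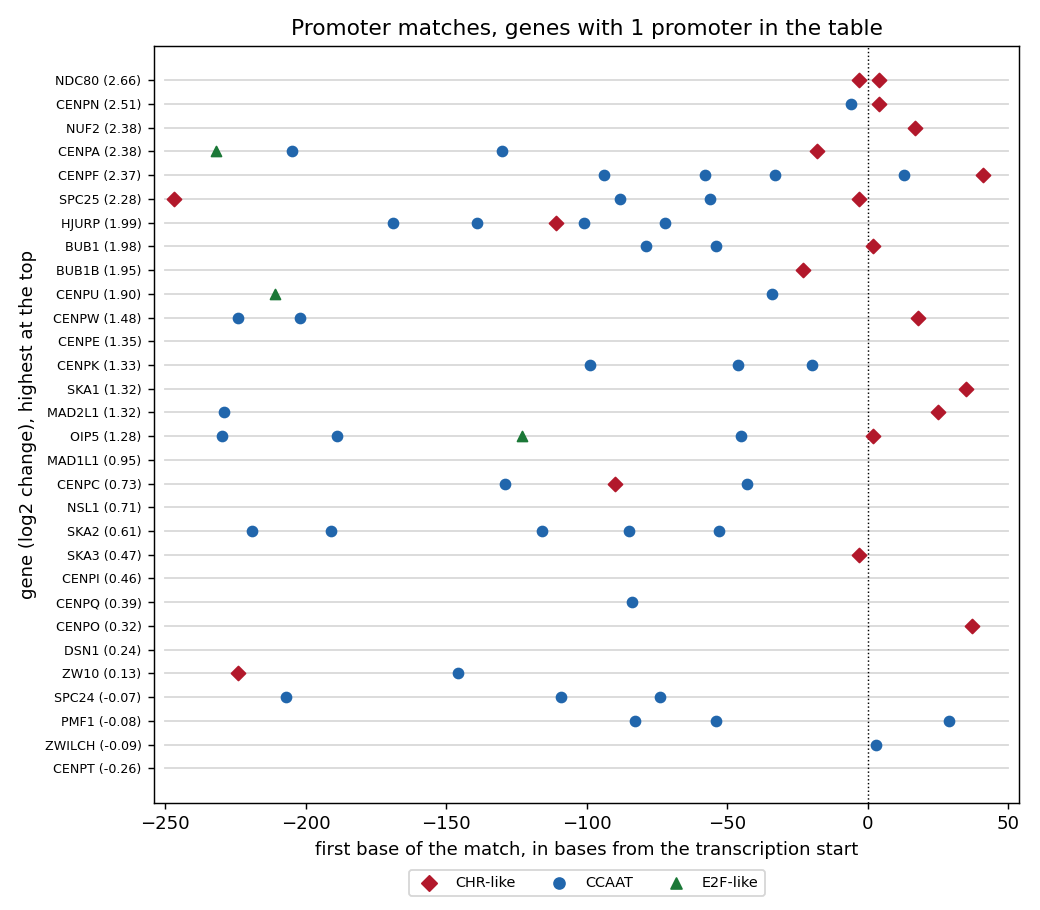
Position of CHR-like, CCAAT and E2F-like matches, by their first base in bases from the transcription start, in the 30 genes with 1 promoter in the table, ordered by log2 change with the highest at the top. CHR-like matches are present in 9 of the 10 genes at the top and in 3 of the 10 at the bottom (SKA3, CENPO and ZW10).

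The genes that mark the centromere and load its histone all rose, 4 of 4. CENPA (RefSeq gene span chr2:26786056-26794589), the centromeric histone H3 variant, read 536 and 556 with the mimic against 110.3 and 99.9 with the control. That is a change of 2.38 ± 0.08, or 5.2-fold (limma adjusted p = 4.96e-09), and it placed 38th of 14122 genes from the top. HJURP, the chaperone that delivers CENP-A to centromeres, read 162 and 169 with the mimic against 55.9 and 31.2 with the control, a change of 1.99 ± 0.21 (adjusted p = 1.37e-05). The control arrays of HJURP lie well apart, and both stay below the mimic arrays. OIP5 and MIS18A encode the paired Mis18 subunits that prepare centromeres for loading. OIP5 read 454 and 462 with the mimic against 201 and 177 with the control (1.28 ± 0.08, adjusted p = 2.99e-07). MIS18A read 261 and 280.1 with the mimic against 151 and 148 with the control (0.86 ± 0.08, adjusted p = 4.91e-06). Both mimic arrays lay above both control arrays for all 4, as they did for 36.5% of all genes tested.

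The inner kinetochore moved unevenly. Of its 13 genes 11 rose, CENPH fell and CENPT did not pass, with a median log2 change of 0.70. CENPN, which binds the CENP-A nucleosome together with CENPL, read 1634 and 1761 with the mimic against 299 and 296 with the control. It rose 5.7-fold (2.51 ± 0.06, limma adjusted p = 1.20e-09), while CENPL rose by 0.70 ± 0.10 from 96.0 and 98.6 against 59.0 and 60.4 (mimic against control). Within the arrays, the log2 ratio of CENPN to CENPL was higher in the mimic group by 1.81 (1.75 to 1.87 over the 4 pairs of arrays). Such ratios are given without a test. CENPU, a subunit of the CENP-O complex that docks the kinase PLK1, read 432 and 482 with the mimic against 119.7 and 124 with the control, a change of 1.90 ± 0.08 (adjusted p = 2.45e-08). The genes of 3 complex partners rose by less. CENPP read 178 and 179 with the mimic against 73.9 and 75.5 with the control (1.26 ± 0.09), CENPQ read 231 and 231 with the mimic against 168 and 186 with the control (0.39 ± 0.08), and CENPO read 60.6 and 71.8 with the mimic against 56.0 and 49.7 with the control (0.32 ± 0.12). ITGB3BP, which encodes the partner CENP-R and is not among the 42, was at 0.15 ± 0.07 and did not pass (adjusted p = 0.086). The log2 ratio of CENPU to CENPQ was higher in the mimic group by 1.52 (1.39 to 1.64). CENPO and CENPQ sat at -0.02 and 0.05 with the poly(A) spikes, which turned the direction of CENPO, and neither passed there, as was so for CENPM (0.20) and CENPI (0.12).

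CENPW and CENPT form a histone-fold dimer, and CENPT is a second route to the NDC80 complex beside CENPC. CENPW read 885 and 975 with the mimic against 343 and 322 with the control, a change of 1.48 ± 0.07 (limma adjusted p = 4.14e-08). CENPT read 60.7 and 55.0 with the mimic against 64.9 and 74.3 with the control, a difference of -0.26 ± 0.11 that did not pass (adjusted p = 0.0734), although the mimic arrays were both lower and the differences of its other 4 probe sets were also negative, 1 of them passing (-0.34, adjusted p = 0.0365 over all probe sets). CENPT passed, as lower, under 5 of 18 alternatives, which were a second quantile normalization (-0.30), the poly(A) spikes (-0.60), both means of its probe sets (-0.29) and leaving out control replicate 1 (-0.36). The log2 ratio of CENPW to CENPT was higher in the mimic group by 1.75 (1.46 to 2.03). CENPC, the scaffold that ties CENP-A nucleosomes to the MIS12 complex, read 86.5 and 82.4 with the mimic against 45.0 and 57.7 with the control and rose by 0.73 ± 0.13. Without probe sets of the cross-hybridizing kinds CENPC was at 0.34 and did not pass.

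CENPH, CENPI, CENPK and CENPM form 1 complex, and its genes went apart. CENPK read 85.5 and 99.3 with the mimic against 32.6 and 41.2 with the control (1.33 ± 0.14, limma adjusted p = 1.15e-05) and CENPM read 223 and 242 with the mimic against 171 and 148 with the control (0.54 ± 0.09, adjusted p = 4.67e-04). CENPI was dim, at 25.5 and 28.3 with the mimic against 23.4 and 16.4 with the control, with 1 control array below the highest control probe set with no human target (16.8). Its change of 0.46 ± 0.17 passed narrowly (adjusted p = 0.0461), and it did not pass without mimic replicate 1 (0.53), without mimic replicate 2 (0.38) or without control replicate 2 (0.20), being 0.72 without control replicate 1. CENPH has only 1 probe set, of a cross-hybridizing kind. CENPH read 41.4 and 44.6 with the mimic against 49.7 and 57.5 with the control, lower on both mimic arrays. Its fall of -0.32 ± 0.12 passed narrowly (adjusted p = 0.0461), and it was at -0.26, -0.37 and -0.21 without mimic replicate 1, mimic replicate 2 and control replicate 2, not passing in any of the 3. The log2 ratio of CENPK to CENPH was higher in the mimic group by 1.64 (1.53 to 1.76). CENPO (adjusted p = 0.0442), from the neighbouring complex, likewise passed in neither case without mimic replicate 1 (0.45) or mimic replicate 2 (0.20), nor without control replicate 2 (0.24). Without the filter on dim probe sets none of CENPH, CENPI and CENPO passed.

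The outer kinetochore held the largest single change of the 42 and also 3 genes that did not pass. Of its 10 genes 7 rose, with a median of 0.87. NDC80 (gene span chr18:2571557-2616635), which contacts the microtubule directly, read 341 and 376 with the mimic against 55.6 and 57.7 with the control, a 6.33-fold rise (2.66 ± 0.09, limma adjusted p = 5.04e-09). NUF2, its coiled-coil partner, read 112 and 129 with the mimic against 22.7 and 23.3 with the control (2.38 ± 0.12, adjusted p = 6.06e-08). Both control arrays of each gene lie close together, and the mimic arrays are far above them. The other end of the NDC80 complex is a dimer of SPC24 and SPC25, which binds the inner kinetochore. SPC25 read 119 and 151 with the mimic against 27.2 and 27.8 with the control, a 4.86-fold rise (2.28 ± 0.13, adjusted p = 1.64e-07).

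SPC24 did not pass, unlike the 3 other subunits of its complex. It read 50.3 and 49.5 with the mimic against 51.7 and 53.4 with the control, a difference of -0.07 ± 0.11 (limma adjusted p = 0.58). Of its other 3 tested probe sets, 1 was lower past the threshold (-0.40 ± 0.14, adjusted p = 0.0286 over all probe sets) and the others were at -0.26 and -0.08. The lower probe set read 18.9 and 17.5 with the mimic against 23.2 and 24.9 with the control, near the highest no-target control (16.8). The probe set at -0.26 was below that control on every array. The log2 ratio of SPC25 to SPC24 was higher in the mimic group by 2.36 (2.16 to 2.55 over the 4 pairs of arrays), whereas that of NDC80 to NUF2 was higher by 0.28 (0.23 to 0.32). A factor applied to a whole array cancels in a ratio within it. Such a ratio shows unequal change of the probe sets and says nothing of how much of each protein is present.

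KNL1, the scaffold on which BUB1 and BUB3 assemble, read 446 and 469 with the mimic against 118 and 115 with the control, a change of 1.97 ± 0.07 (limma adjusted p = 1.14e-08). ZWINT, which binds KNL1, differed far less, at 270.0 and 300.3 with the mimic against 237 and 230.2 with the control. Its change of 0.29 ± 0.08 passed (adjusted p = 0.00941) but was 0.21 without mimic replicate 2, which did not pass, and turned to -0.05 with the poly(A) spikes. The 4 genes of the MIS12 complex, which joins CENPC to the outer layer, were graded. MIS12 read 290.0 and 291 with the mimic against 146 and 137 with the control (1.04 ± 0.08, adjusted p = 1.08e-06), and NSL1 read 617 and 638 with the mimic against 404 and 366 with the control (0.71 ± 0.07, adjusted p = 6.93e-06). DSN1 read 159.9 and 187 with the mimic against 137 and 156 with the control, a difference of 0.24 ± 0.10 that did not pass (adjusted p = 0.0651), turned to -0.10 with the poly(A) spikes and passed under 5 of 17 alternatives, at 0.34 without control replicate 2 among them. PMF1 read 242 and 240.5 with the mimic against 251 and 258 with the control, a difference of -0.08 ± 0.07 (adjusted p = 0.377). The log2 ratio of MIS12 to PMF1 was higher in the mimic group by 1.12 (1.04 to 1.19), and that of MIS12 to DSN1 by 0.80 (0.54 to 1.05).

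The SKA complex helps kinetochores hold on to shortening microtubules. SKA1 read 183 and 198 with the mimic against 78.0 and 74.6 with the control (1.32 ± 0.09, limma adjusted p = 6.09e-07), and SKA2 read 267 and 269.6 with the mimic against 165 and 186 with the control (0.61 ± 0.08, adjusted p = 8.66e-05). The other tested SKA2 probe set was at -0.06 ± 0.08 and did not pass, so the rise of SKA2 rests on its brightest probe set. SKA3 read 32.7 and 32.1 with the mimic against 29.3 and 18.8 with the control. Its difference of 0.47 ± 0.19 did not pass (adjusted p = 0.0563), its control arrays lying far apart, and it passed under 8 of 17 alternatives, at 0.78 without control replicate 1 among them.

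The corona is the fibrous outermost layer that forms on unattached kinetochores. CENPF, a large protein of G2 and mitosis that binds microtubules and dynein regulators, read 249 and 275 with the mimic against 51.0 and 50.7 with the control, a 5.15-fold rise (2.37 ± 0.09, limma adjusted p = 1.48e-08). CENPE, the plus-end kinesin that moves chromosomes to the spindle equator, read 139 and 134 with the mimic against 57.0 and 50.6 with the control (1.35 ± 0.10, adjusted p = 1.24e-06). SPDL1 (Spindly), the adaptor that brings dynein, read 348 and 359 with the mimic against 181 and 201 with the control (0.89 ± 0.08, adjusted p = 3.70e-06). For these 3 genes the groups are far apart. The RZZ complex, which recruits Spindly and MAD1, is made of the products of KNTC1 (ROD), ZWILCH and ZW10. KNTC1 read 83.0 and 98.0 with the mimic against 45.5 and 45.9 with the control and rose by 0.98 ± 0.11 (adjusted p = 3.01e-05). ZW10, which also acts in traffic between endoplasmic reticulum and Golgi, read 279.6 and 328 with the mimic against 267 and 286 with the control, and its difference of 0.13 ± 0.09 (adjusted p = 0.218) turned to -0.21 with the poly(A) spikes. ZWILCH read 461 and 475 with the mimic against 499 and 497 with the control, a difference of -0.09 ± 0.06 (adjusted p = 0.231), and none of its 3 other probe sets passed. KNTC1 thus differed from both partners, its log2 ratio to ZWILCH being higher in the mimic group by 1.07 (0.96 to 1.18) and to ZW10 by 0.85 (0.80 to 0.90).

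Of the 6 checkpoint genes 5 rose and the brightest BUB3 probe set fell, with a median of 1.63. TTK (MPS1), the kinase that starts checkpoint signalling by phosphorylating KNL1, read 157 and 175 with the mimic against 40.9 and 40.0 with the control, a 4.11-fold rise (2.04 ± 0.10, limma adjusted p = 6.84e-08). BUB1, the kinase that binds phosphorylated KNL1 and marks centromeric histone H2A, read 187 and 243 with the mimic against 52.8 and 55.6 with the control (1.98 ± 0.12, adjusted p = 3.02e-07). BUB1B, which encodes BUBR1 of the mitotic checkpoint complex, read 359 and 383 with the mimic against 87.4 and 105 with the control (1.95 ± 0.10, adjusted p = 7.64e-08). These 3 changes, from 1.95 to 2.04, differ from each other by no more than an SE. MAD2L1, which encodes MAD2, read 146 and 144 with the mimic against 53.1 and 64.0 with the control (1.32 ± 0.11, adjusted p = 2.48e-06). MAD1L1, which encodes the MAD1 platform that converts MAD2, read 712 and 708 with the mimic against 350.1 and 387 with the control (0.95 ± 0.07, adjusted p = 7.51e-07), and its 2 other probe sets gave 0.99 ± 0.07 and 1.02 ± 0.07.

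BUB3, the shared partner of BUB1 and BUBR1, was the exception, and its probe sets opposed each other. The brightest read 1192 and 1128 with the mimic against 1326 and 1419 with the control, a fall of -0.24 ± 0.06 (limma adjusted p = 0.00335), which did not pass without mimic replicate 2 (-0.20). A second read 912 and 954 with the mimic against 539 and 530.1 with the control and rose by 0.80 ± 0.06 (adjusted p = 3.30e-07 over all probe sets). It is of the cross-hybridizing kinds, which the brightest and the third are not. The third read 108 and 99.5 with the mimic against 105 and 122 with the control, with a difference of -0.13 ± 0.10 that did not pass. With the mean of its probe sets BUB3 was at 0.15 and did not pass. Which BUB3 transcripts each probe set reads was not tested, so no direction is given for the gene.

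Other members were also checked by the probe sets that the rule left aside. In all, 21 members have other probe sets, 45 of them, of which 39 were tested, 21 rose, 2 fell and 16 did not pass, where 27.2% of all tested probe sets rose and 24.2% fell. Of the 27 tested ones in genes whose brightest probe set rose, 20 rose too, and the BUB3 pair was the 1 case of opposite calls. CENPA rose on all 4 of its probe sets, from 1.41 to 2.73, and CENPN on 5 of 6, from 1.14 to 2.51, the sixth being too dim to test. Of the other MAD2L1 probe sets 2 rose, by 2.11 and 1.65, and a dim one was at -0.38 and did not pass. The CENPF pair gave 2.37 and 2.37. In CENPP, NSL1 and SKA2 no other probe set passed, with CENPP at 0.06 and 0.27 and NSL1 at -0.36 and 0.25. Averaged over its probe sets, CENPP was at 0.53, NSL1 at 0.20, SKA2 at 0.28, SKA1 at 0.69, KNL1 at 1.19 and CENPN at 1.36, each still past the threshold. Probe sets of a gene share the arrays and are no replicates.

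**Figure D4:**
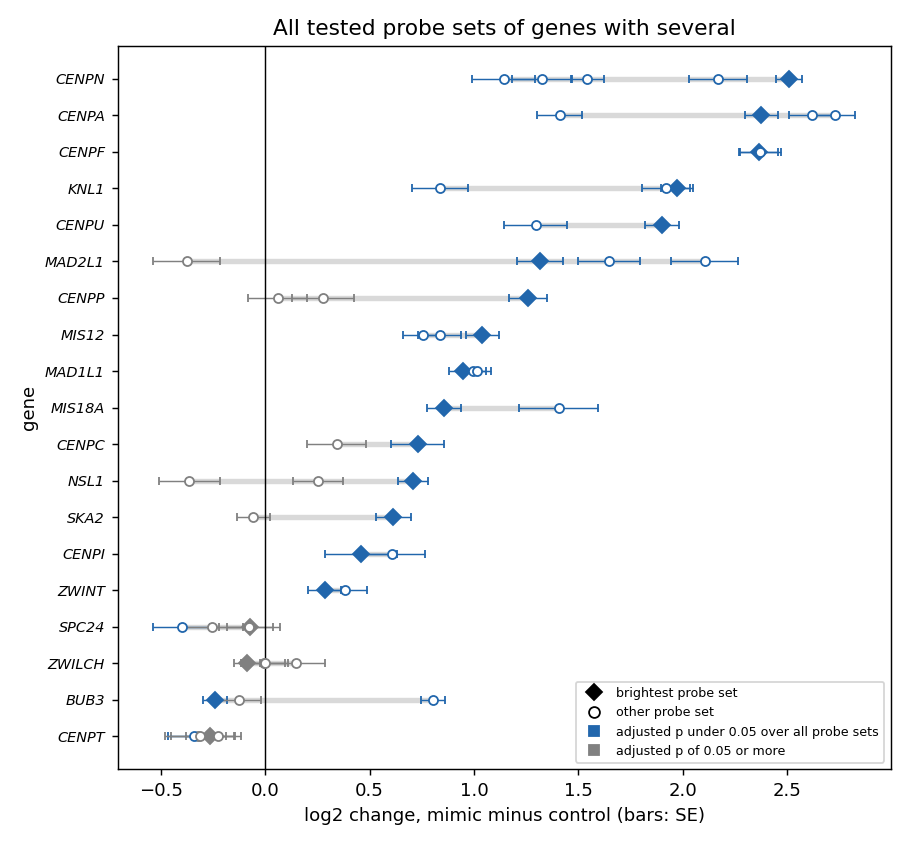
Log2 change with SE of every tested probe set of the 19 genes with more than 1 tested probe set, the brightest as filled diamonds and the others as open circles, blue where the adjusted p over all probe sets was under 0.05. The BUB3 probe sets lie on both sides of 0, at -0.24, -0.13 and 0.80, while those of CENPF coincide.

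Further genes of the pathway, listed by name and not among the 42, moved in part. Of 36 listed, 35 have a probe set and all 35 were tested. In the mimic group 17 rose, 8 fell and 10 did not pass, beside 28.1% and 26.9% of all genes tested, with a median log2 change of 0.23. The largest rise was that of CDC20, the anaphase promoting complex activator that the checkpoint holds back, which read 1366 and 1409.9 with the mimic against 334 and 334 with the control (2.05 ± 0.06, limma adjusted p = 2.17e-09). SGO2, a protector of centromeric cohesion, rose by 1.83 ± 0.13. HASPIN, the kinase whose mark on histone H3 places the chromosomal passenger complex, rose by 1.70 ± 0.14. NUP37, of the nuclear pore subcomplex that also sits at kinetochores, rose by 1.70 ± 0.07. Other listed genes of that subcomplex went apart. NUP107 rose by 0.45 ± 0.06, NUP43 did not pass (-0.10 ± 0.06) and NUP85 fell (-0.34 ± 0.07). The kinesins KIF18A and KIF2C, which shape microtubule ends at kinetochores, rose by 1.63 ± 0.12 and 1.62 ± 0.06.

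The partner genes that fell did so by less. RSF1, a chromatin remodelling subunit, was at -0.57 ± 0.07, PPP2R5C, a regulatory subunit of the phosphatase PP2A, at -0.54 ± 0.05, and CLIP1, a microtubule plus-end protein, at -0.52 ± 0.07. CENPX, a small histone-fold protein of the CENPT branch, read 1054 and 1102 with the mimic against 1478 and 1458 with the control (-0.45 ± 0.05, limma adjusted p = 2.34e-05). CLASP1, which promotes microtubule growth at kinetochores, was at -0.43 ± 0.07 and the dynein regulator NDE1 at -0.36 ± 0.09. Averaged over its probe sets, PPP2R5C was at -0.18, CLIP1 at -0.31, NDE1 at -0.22 and CLASP1 at -0.20, the last not passing. Without probe sets of the cross-hybridizing kinds CLIP1 was at -0.01 and did not pass, and without mimic replicate 2 NDE1 was at -0.30 and did not pass.

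Across probe sets, Pearson's r was 0.998 and 0.997 inside the mimic and the control group, and 0.978 to 0.982 between arrays of different groups. The squamous markers KRT5, KRT14 and DSP were bright on all 4 arrays (lowest 7049, 2492 and 2229), and all 7 squamous markers with a probe set, of 10 listed, were above the no-target controls. Of these 7, 5 rose and 2 fell, CDH1 (-1.26 ± 0.06) and ITGB4 (-1.11 ± 0.07), beside 28.1% and 26.9% of all genes tested. The summed intensities of the 7 were 20775 to 21477 with the mimic and 16848 to 17621 with the control. TP63, KRT6A and KRT17 were not analysed here. Of the other cell types' markers, 3 of 8 fibroblast, 2 of 6 immune and 3 of 5 endothelial genes exceeded those controls in a group mean. Their summed intensities were 206 to 225 against 191 to 192 (fibroblast, mimic against control), 183 to 214 against 171 to 185 (immune) and 110 to 126 against 147 to 157 (endothelial). FAP was the brightest fibroblast gene on every array. The immune genes CD14 and CD68 and the endothelial genes KDR and VWF were above the highest no-target control on every array. Of these, CD14 rose (0.68 ± 0.12, limma adjusted p = 6.85e-04) and KDR fell (-0.73 ± 0.15, adjusted p = 0.00152). CD68 (-0.21 ± 0.12) and VWF (-0.11 ± 0.11) did not pass. PTPRC, CDH5 and COL3A1 were below that control on every array.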

How the data were processed

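Affymetrix PrimeView arrays, 2 per group and 4 in all, measured total RNA from SCC-9 cells, and the sample titles gave the groups. The deposited values are intensities per probe set. RMA is named in the submitters' processing notes, and since the values run from 2.09 to 17329 they were taken as RMA results put back on a linear scale, and log2 was computed here. RMA gives the arrays a like distribution, so a shift of the whole transcriptome is not visible. Other upstream settings are not given in the sources used here.

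Of 49395 probe sets, 102 are controls, 44988 pair with 1 gene symbol, 1832 with several and 2473 with none in the annotation used. Each gene took its probe set with the highest mean log2 intensity, and genes above the 30th percentile of probe sets (12.0) were tested with limma 3.58.1 in R 4.3.3 (lmFit, eBayes with a trend, two-sided, Benjamini-Hochberg over 14122 genes, threshold 0.05). The other probe sets were tested in 1 fit over 31752 probe sets. The main fit had 2 residual degrees of freedom beside 8.35 from the prior, so the number of arrays limits the precision. The procedure was tested on simulated data. Background is the highest of 20 control probe sets with no human target (16.8). Changes of within-array ratios are means over the 4 pairs of a mimic and a control array and have no test, and their gene pairs were chosen after the values were seen. Gene spans, promoters and microRNAs are RefSeq's, GRCh38.p14.

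The members and lists were chosen with earlier results of these data known. Named genes are all members, the 6 largest changes in each direction among partners, and the brightest markers. ITGB3BP, NUP107, NUP43, NUP85 and further markers were named after their values were seen. Some listed genes are not reported here. Alternatives were 4 other scalings, an offset before the log, 3 changes of the filter, 3 of the choice of probe set, 2 of the variance estimate, a replicate block, a threshold of 0.01, a shorter promoter window and leaving out each array.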

Additional observations from a re-analysis of the deposited data

How the results depend on the processing

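The count of risen members stayed between 28 and 35 under every alternative tried, and the partner counts stayed within 1.5 times. Both spike scales gave far smaller limma adjusted p-values for the largest changes than the main fit, so calls there are not like the main ones. The shares of all genes that rose or fell are given for the main setting only. The count of fallen members, 2, became 1 with a shared median, 1 with the hybridization spikes and 1 without a filter. It was 1 at an adjusted p under 0.01 and 6 with the poly(A) spikes. Without cross-hybridizing probe sets it was also 1, with 37 members tested. CENPH, CENPL, CENPQ, DSN1 and TTK have only probe sets of those kinds and had no value there. Leaving out 1 array gave 0 to 3, the 0 (limma) being without mimic replicate 2, where 1 passed unadjusted. The members' median of 0.96 went to 0.63 with the poly(A) spikes, 0.88 with log2(intensity + 16) and 0.88 with probe sets averaged, and ran from 0.91 to 0.99 when 1 array was left out. Signs turned with the poly(A) spikes for CENPO (-0.015), DSN1 (-0.10), ZWINT (-0.054) and ZW10 (-0.21), and for ZWILCH (0.012) and BUB3 (0.15) with the mean over all probe sets or over those above the filter, which gave equal values. The cause was not tested beyond the shift by the spikes, which lowers every gene alike. Of the 35 members with a value under all 18 alternatives for single genes, 25 kept direction and side of the threshold in all of them. With the replicate block 35 members rose and 2 fell. Nothing in the labels pairs arrays of the same number, and same-numbered deviations correlated at 0.084 (2 pairs), so the block is given only here. In a window of 100 bases before the start, E2F-like letters were in 1 member promoter and not 4, the window being shorter. Signal over background limits CENPI and SKA3, whose lowest control arrays (16.4 and 18.8) lie near the highest no-target control (16.8). NUF2 and SPC25 were also dim on the control arrays, and their changes were smaller with log2(intensity + 16), at 1.80 and 1.78.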
